A study of Mus musculus with 18 samples.

Results

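Fos, Fosb, Fosl2, Jun, Junb, Jund, Egr1, Myc, Klf6 and Dusp1 are immediate early genes of the mouse, and their mRNA was followed in tibialis anterior (TA) muscle of tumor-bearing and control mice. They were chosen by symbol, as 9 transcription factors and, in Dusp1, the phosphatase that switches off the kinases upstream of them. Earlier results of these data were known at that choice, so setting their counts beside those of all genes is a description only. These are 10 of 29433 genes with a count, and all 10 passed the filter on low counts that left 16089 genes for testing. Immediate early genes are transcribed within minutes of a stimulus from factors already present in the cell, chiefly through MAP kinases, serum response factor (SRF) and CREB, and most of their mRNAs are short lived. Fos and Jun proteins pair through leucine zippers to form AP-1, a factor that binds enhancers of growth, stress and inflammation genes, while Myc drives ribosome production and growth. In skeletal muscle these genes are known to respond to contraction, injury, cytokines and disuse.

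The 18 libraries form 9 groups of 2, which the labels call biological replicates, all from TA muscle. In the LLC experiment C57BL/6 mice carried LLC (Lewis lung carcinoma) cells injected intramuscularly, against PBS controls, and the sources used here do not say whether the sampled muscle lay in the injected leg. In the orthotopic experiment C57BL/6 mice received 1000 KPCML1 cells or 50000 KPC cells, both pancreatic tumor lines, against Matrigel alone. In the C26 experiment CD2F1 mice carried C26 (colon carcinoma) cells injected subcutaneously, against PBS controls. In the KPP experiment tumors arose in a genetic C57BL/6 model induced with tamoxifen, against the no-tumor controls of that model. The sources used here give neither the alleles and promoter of the model and of its controls nor whether the controls received tamoxifen. They give no ages or sexes. The KPCML1 and KPC comparisons share their 2 Matrigel controls and are therefore not independent of each other.

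Levels are CPM, the fragments of a gene relative to the normalised library size, and the total was 22546541 to 36673780 fragments per library. A log2 fold change is tumor minus control, given ± its standard error (SE). The SE was derived from the test, as the absolute log2 fold change divided by the square root of the F statistic. A gene was called when its p from edgeR's quasi-likelihood test, adjusted over all 16089 genes by the method of Benjamini and Hochberg, was under 0.05. The 8 genes that define fast skeletal muscle, among them Acta1, Ckm and Myh4, were present in all 18 libraries and summed to 112600 to 191200 CPM. For this sum and those of cell type markers, CPM is relative to the plain library total, without normalisation. The share of counts from mitochondrial genes was 5.94 to 16.9% in tumor libraries and 14.6 to 22.4% in control libraries.

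Myc, Junb and Klf6 rose in all 5 models. Fosl2 rose in KPC and KPP muscle and Jun in LLC and C26 muscle, while Dusp1 fell in C26 muscle. Fos, Fosb, Jund and Egr1 passed the test in no single model. In bulk muscle, more RNA per cell and more cells of a type that expresses the gene cannot be told apart for any of these values.

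In LLC muscle 4 of the 10 genes were called, all 4 higher, against 13.6% of all genes called and 7.39% called higher. In KPCML1 muscle 3 were called, all higher, against 8.53% of all genes called and 4.15% called higher. In KPC muscle 4 were called, all higher, against 29.1% of all genes called and 15.3% called higher. C26 muscle had 5 called genes, 4 higher and 1 lower, against 21.3% of all genes called, 11.5% higher and 9.8% lower. KPP muscle had 4 called genes, all higher, against 36.7% of all genes called and 17.4% called higher. No member was called lower in LLC, KPCML1, KPC or KPP muscle by edgeR, where the count was also 0 at an unadjusted p under 0.05 and by DESeq2. With 1 library left out the count was 2 in LLC muscle (without control replicate 1 or tumor replicate 2), 0 in KPCML1 (without Matrigel control replicate 2 or tumor replicate 2) or 1 (without either other library), 1 in C26 (without control replicate 1 or tumor replicate 2) or 2 (without control replicate 2), and 2 in KPP muscle (without tumor replicate 2). At an unadjusted p under 0.05, 4 genes passed in each KPCML1 fit with a count of 0, in which DESeq2 was not run. The median log2 fold change of the 10 genes was 0.88 in LLC, 1.08 in KPCML1, 1.19 in KPC, 0.92 in C26 and 1.07 in KPP muscle, while the median over all genes was -0.0005, 0.02, -0.015, 0.04 and -0.035 in the same order. Both tumor libraries lay above both controls for 5 of the 10 genes in LLC muscle (31.7% of all genes did so), for 10 in KPCML1 (30.8%), 7 in KPC (31.4%), 6 in C26 (34.3%) and 8 in KPP muscle (30.2%). Both lay below both controls for 0 in LLC (32.0% of all genes), 0 in KPCML1 (29.2%), 1 in KPC (34.0%), 2 in C26 (31.5%) and 0 in KPP muscle (33.9%).

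**Figure D1:**
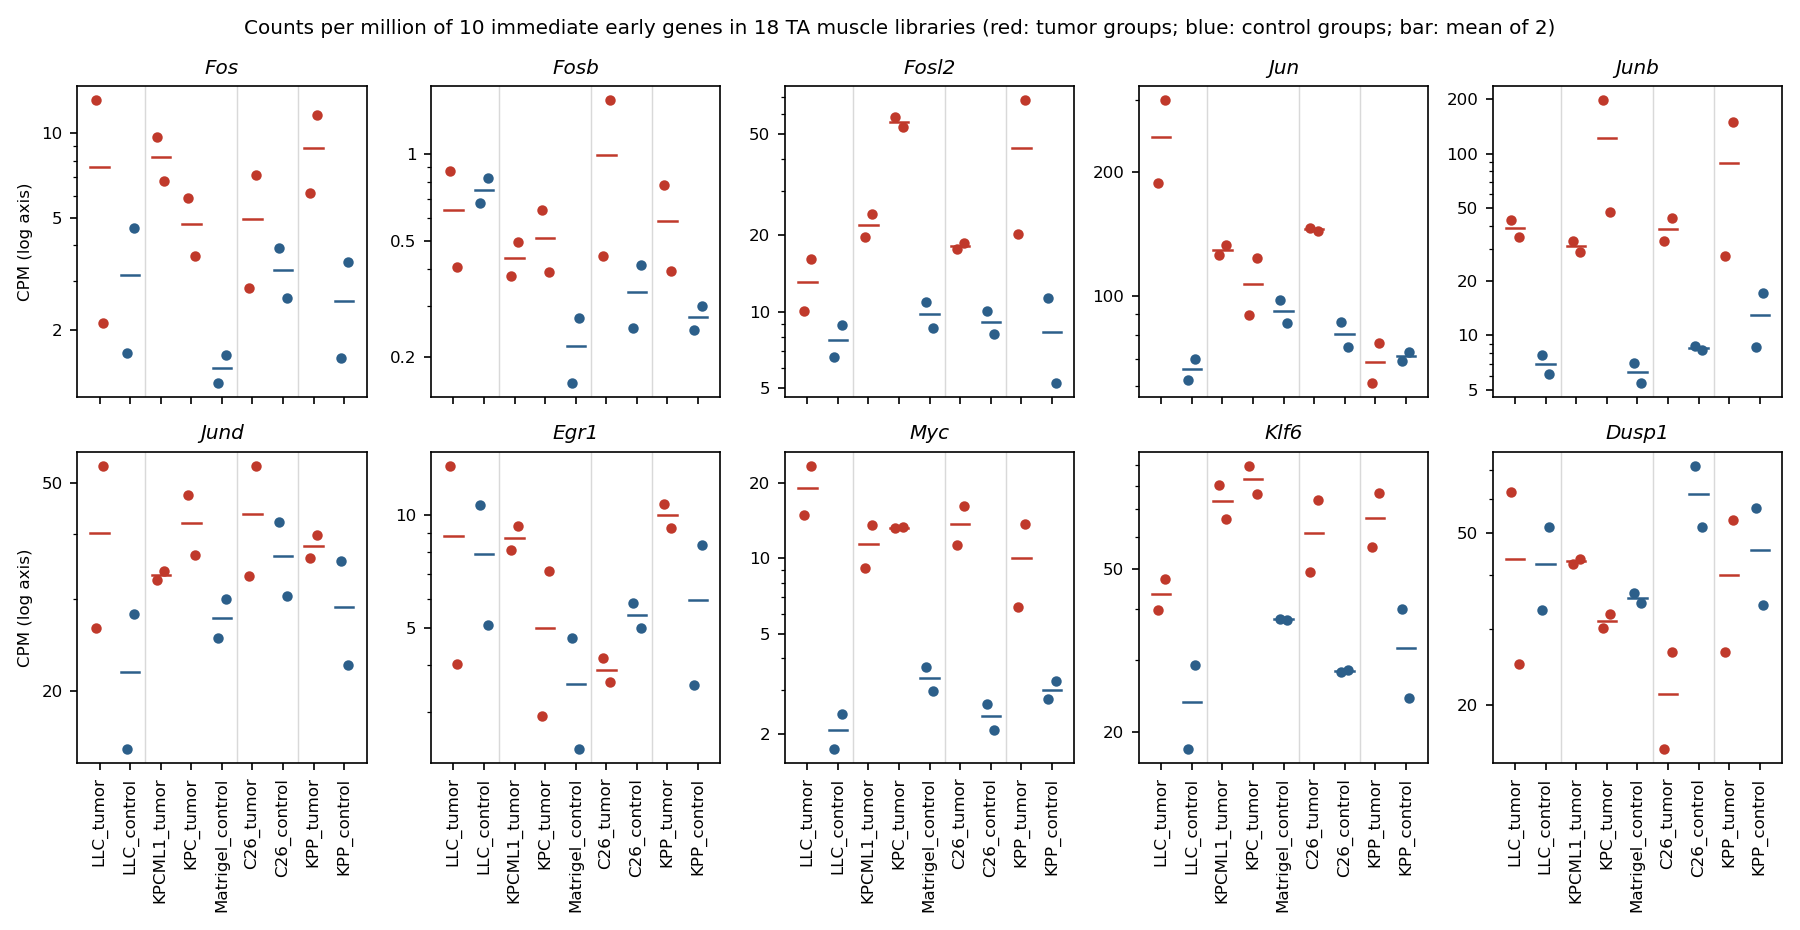
Level of each of the 10 genes, in CPM on a log axis, in the 18 libraries; each point is 1 library, each bar the mean of the 2 libraries of a group, red marks tumor groups and blue their controls, and grey lines separate the 4 experiments. For Myc, Junb, Klf6 and Fosl2 both tumor libraries lie above both controls in each of the 5 comparisons, while for each of the other genes the groups overlap in at least 1 comparison.

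Compared per length, in TPM, Jun had the highest median over the 10 tumor libraries (53.9 TPM), followed by Junb (29.1), Jund (28.8), Dusp1 (22.0), Klf6 (19.6), Myc (8.70), Fosl2 (4.47), Fos (4.09), Egr1 (2.71) and Fosb (0.177). Over the 8 control libraries the order of median TPM was Jun (24.5), Dusp1 (24.4), Jund (18.4), Klf6 (7.59), Junb (4.69), Myc (1.58), Egr1 (1.503), Fosl2 (1.49), Fos (1.34) and Fosb (0.0844). The ranges of neighbouring genes in these orders overlapped over the libraries, with 2 kinds of exception: Fosb lay below each of the other genes in tumor and in control libraries, and Junb (3.18 to 8.48 TPM) lay above Myc (1.02 to 1.99 TPM) in controls. Junb was the second gene in the tumor order and the fifth in the control order. TPM were not normalised between libraries, and the median log2 TPM difference of all genes (pseudocount 0.1 TPM) was 0.43 in LLC, 0.34 in KPCML1, 0.47 in C26, 0.06 in KPP and 0.01 in KPC muscle, so differences between groups are given from CPM.

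Promoters are shown for Junb and Klf6, which rose in all 5 models, and for Jun and Dusp1, whose differences were called in some models, so that the starts of genes with different patterns can be set beside each other. Each covers 250 bases before to 50 bases after the RefSeq start site, on the gene's strand, in build GRCm38.p6. Promoters of 8 of the genes were searched. No RefSeq promoter entry was found for Myc. The promoter of Egr1 was left out of the search, so its motifs are not known here. Capitals mark matches of searched motifs on either strand: CACGTG (the E-box bound by Myc and Max), TGACNTCA (a cAMP response element or AP-1-like site), its core TGACG as found in Junb and Dusp1, and TGTTTAC (a FoxO-type site). The motifs were chosen with these sequences in view.
Junb, chr8:84978699-84978998, minus strand: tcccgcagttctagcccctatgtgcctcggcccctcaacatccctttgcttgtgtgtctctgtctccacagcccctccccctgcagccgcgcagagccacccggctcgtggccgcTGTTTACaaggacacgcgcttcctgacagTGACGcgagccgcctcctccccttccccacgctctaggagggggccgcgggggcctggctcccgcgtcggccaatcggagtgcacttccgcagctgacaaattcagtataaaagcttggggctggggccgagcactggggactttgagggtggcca
Klf6, chr13:5861239-5861538, plus strand: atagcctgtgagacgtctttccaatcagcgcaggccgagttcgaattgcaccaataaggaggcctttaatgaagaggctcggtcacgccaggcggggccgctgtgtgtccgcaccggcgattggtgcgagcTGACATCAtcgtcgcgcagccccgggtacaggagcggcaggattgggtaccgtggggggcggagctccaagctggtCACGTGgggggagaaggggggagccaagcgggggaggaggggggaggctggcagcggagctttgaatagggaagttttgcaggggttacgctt
Jun, chr4:95052173-95052472, minus strand: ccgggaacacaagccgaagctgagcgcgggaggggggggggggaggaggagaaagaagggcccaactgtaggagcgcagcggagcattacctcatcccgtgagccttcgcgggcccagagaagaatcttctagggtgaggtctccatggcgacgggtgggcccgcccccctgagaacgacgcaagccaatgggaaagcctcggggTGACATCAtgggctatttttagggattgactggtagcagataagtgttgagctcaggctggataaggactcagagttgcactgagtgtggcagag
Dusp1, chr17:26508423-26508722, minus strand: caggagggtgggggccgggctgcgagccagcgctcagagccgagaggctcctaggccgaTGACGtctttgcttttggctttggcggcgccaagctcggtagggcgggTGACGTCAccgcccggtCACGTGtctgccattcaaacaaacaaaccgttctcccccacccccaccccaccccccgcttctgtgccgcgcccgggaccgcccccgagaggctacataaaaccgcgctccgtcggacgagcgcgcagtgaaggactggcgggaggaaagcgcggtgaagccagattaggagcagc
TGACNTCA matched in the Jun promoter at position -45 and in the Klf6 promoter at -119, both as TGACATCA, and in the Dusp1 promoter at -143 as TGACGTCA. Of 32851 RefSeq promoters of the same length, 8.83% hold TGACNTCA. The Junb window held TGTTTAC at -135, present in 3.65% of promoters, and TGACG at -106, present in 20.8%; TGACG lies inside TGACGTCA, so these matches overlap in Dusp1. CACGTG occurred at -43 in Klf6 and at -126 in Dusp1, and in 7.15% of promoters. No CArG box (the SRF site, in 1.63% of promoters), TGACTCA (5.2%) or TTCNNNGAA (8.3%) occurred in the 4 windows, which says only that these letters are not in these bases.

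Fos, which binds DNA only together with a partner such as Jun, is known for a fast and brief induction. Fos had 13.1 and 2.12 CPM in LLC tumor muscle, against 1.66 and 4.62 CPM in LLC control muscle. In the orthotopic experiment it had 9.70 and 6.80 CPM in KPCML1 and 5.91 and 3.66 CPM in KPC muscle, against 1.30 and 1.64 CPM in Matrigel muscle. The groups overlapped in LLC, where 1 tumor library lay above both controls and the other between them, and did not overlap in either orthotopic comparison. Fos levels in C26 tumor muscle were 2.83 and 7.10 CPM, against 3.93 and 2.61 CPM in C26 control muscle. KPP tumor muscle had 6.15 and 11.6 CPM, against 1.59 and 3.50 CPM in KPP control muscle, without overlap. The log2 fold changes were 1.27 ± 0.71 in LLC, 2.49 ± 0.75 in KPCML1, 1.71 ± 0.74 in KPC, 0.60 ± 0.71 in C26 and 1.82 ± 0.73 in KPP muscle (n = 2 libraries a group). The adjusted p of edgeR's quasi-likelihood test was 0.271, 0.0545, 0.0987, 0.592 and 0.0634 in that order, so that Fos was called in 0 of the 5 models. At an unadjusted p under 0.05 the count was 3, and DESeq2 called Fos in 3 models, KPCML1 (adjusted p = 0.0043), KPC (0.0392) and KPP (0.0195). The same 3 were called with each experiment fitted alone (0.0104, 0.0136 and 0.0385), and without the filter on low counts LLC was called too (0.00161). The LLC effect without the filter was 1.30 ± 0.33, a similar size with a smaller SE. The effect averaged over the 5 models was called, at 1.58 ± 0.37 (edgeR adjusted p = 0.00271), against 25.2% of all genes called higher in that average.

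Fosb, whose truncated splice form is known to build up in brain under repeated stimulation, was the scarcest of the 10. Its level was 0.380 to 1.53 CPM, median 0.471, over the 10 tumor libraries and 0.162 to 0.827 CPM, median 0.286, over the 8 control libraries, from 5 to 46 counts a library. Both tumor libraries lay above both controls in 4 models, and in LLC the groups overlapped at 0.875 and 0.409 CPM in tumor against 0.680 and 0.827 CPM in control muscle. The log2 fold change was largest in C26 muscle (1.55 ± 0.63) and negative in LLC muscle (-0.24 ± 0.62), and edgeR's quasi-likelihood test called it in 0 models (adjusted p 0.0988 to 0.857). At an unadjusted p under 0.05 the count was 1, and DESeq2 called it in 0. The average over the models was called at 0.93 ± 0.33 (adjusted p = 0.0311). That call was lost when any 1 of 10 libraries was left out, with adjusted p 0.0504 to 0.122: replicate 1 of LLC control, LLC tumor, KPC tumor, C26 control, KPP control and KPP tumor, replicate 2 of KPCML1 tumor and C26 tumor, and either Matrigel control. Without C26 tumor replicate 1, by contrast, Fosb was called in C26 muscle (adjusted p = 0.0251).

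Fosl2 encodes FRA-2, a longer-lived Fos protein without the strong activation domain of Fos. KPC muscle had 58.7 and 53.4 CPM and KPCML1 muscle 19.8 and 24.2 CPM, against 10.9 and 8.67 CPM in Matrigel muscle. KPP tumor muscle had 20.2 and 68.2 CPM, against 11.4 and 5.24 CPM in KPP control muscle. Tumor and control libraries were apart in both experiments, and KPP tumor replicate 2 was the highest of the 18. Fosl2 rose 5.72-fold in KPC muscle (log2 fold change 2.52 ± 0.46, adjusted p = 0.00174) and 5.28-fold in KPP muscle (2.40 ± 0.46, adjusted p = 0.00146), by edgeR's quasi-likelihood test. Without KPP tumor replicate 2 the KPP value was 1.33 ± 0.37 (adjusted p = 0.0164), and without KPP control replicate 1 or KPP tumor replicate 1 it was 3.08 and 3.02. LLC tumor muscle had 10.1 and 16.1 CPM, against 6.67 and 8.91 CPM in LLC control muscle, and C26 tumor muscle had 17.6 and 18.7 CPM, against 10.1 and 8.22 CPM in C26 control muscle. In LLC, KPCML1 and C26 muscle the tumor libraries lay above the controls too, but log2 fold changes of 0.75 ± 0.45, 1.17 ± 0.45 and 0.99 ± 0.45 were not called (adjusted p = 0.31, 0.122 and 0.133). The joint test of a difference among the 5 models, which called 8.32% of all genes, was not passed by Fosl2 (adjusted p = 0.0816). It was passed without KPP tumor replicate 1 (0.0126), without KPP tumor replicate 2 (0.0376), without the filter on low counts (3.58e-12) and by DESeq2 (0.00411). The effects in LLC, KPCML1 and C26 muscle were called without the filter (0.0149, 5.51e-05 and 0.000948), and those in KPCML1 and C26 also with each experiment fitted alone (0.0224 and 0.0203). Without the filter the size of the effect hardly moved and its SE shrank, to 1.16 ± 0.24 in KPCML1 muscle.

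Jun, the archetypal AP-1 subunit and the main target of JNK, had 189 and 300.5 CPM in LLC tumor muscle, against 62.2 and 69.9 CPM in LLC control muscle. C26 tumor muscle had 146 and 144 CPM, against 86.2 and 74.9 CPM in C26 control muscle. In both experiments the groups did not overlap, and LLC tumor held the 2 highest Jun levels of the 18 libraries. KPCML1 muscle had 126 and 133 CPM and KPC muscle 89.5 and 124 CPM, against 97.6 and 85.7 CPM in Matrigel muscle. KPP tumor muscle had 61.1 and 76.8 CPM, against 69.3 and 72.9 CPM in KPP control muscle. KPC and KPP tumor muscle overlapped with their controls, and KPCML1 muscle did not. Jun rose 3.70-fold in LLC muscle (log2 fold change 1.89 ± 0.22, adjusted p = 0.000233) and 1.80-fold in C26 muscle (0.85 ± 0.22, adjusted p = 0.0133), while 0.50 ± 0.22 in KPCML1, 0.22 ± 0.21 in KPC and -0.04 ± 0.22 in KPP muscle were not called (adjusted p = 0.17, 0.478 and 0.896). The C26 call was lost without C26 control replicate 1 (0.0519), C26 control replicate 2 (0.115) or C26 tumor replicate 2 (0.0655).

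Jun was the 1 gene of the 10 that passed the joint test of a difference among the models in edgeR (adjusted p = 0.0142), against 8.32% of all genes. This call was lost without LLC control replicate 1 (0.0628). Of the 10 pairs of models, 2 were called, each adjusted over all genes: the Jun effect was larger in LLC than in KPP by 1.93 ± 0.31 log2 units (adjusted p = 0.00572) and larger in LLC than in KPC by 1.67 ± 0.31 (adjusted p = 0.0195). LLC exceeded KPCML1 by 1.39 ± 0.30 (adjusted p = 0.0916) and C26 by 1.04 ± 0.30 (adjusted p = 0.178), neither of which was called.

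Junb, the Jun protein that is known to maintain muscle mass in mice and that often opposes Jun at shared sites, had the largest averaged change of the 10. KPC muscle had 197 and 47.5 CPM and KPCML1 muscle 33.2 and 28.8 CPM, against 7.07 and 5.46 CPM in Matrigel muscle. KPP tumor muscle had 27.5 and 149 CPM, against 8.67 and 17.2 CPM in KPP control muscle. In both of these tumor groups 1 library, KPC replicate 1 and KPP replicate 2, stood far above its partner, yet no tumor library fell to the level of its controls. LLC tumor muscle had 42.9 and 35.0 CPM, against 7.78 and 6.16 CPM in LLC control muscle. C26 tumor muscle had 32.9 and 44.4 CPM, against 8.76 and 8.28 CPM in C26 control muscle. Groups were apart in all 5 comparisons, with 27.5 to 197 CPM over the 10 tumor libraries and 5.46 to 17.2 CPM over the 8 controls.

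The fold change of Junb was 19.5 in KPC (log2 4.28 ± 0.73, adjusted p = 0.00113), 6.88 in KPP (2.78 ± 0.68, adjusted p = 0.00607), 5.59 in LLC (2.48 ± 0.68, adjusted p = 0.0277), 4.54 in C26 (2.18 ± 0.67, adjusted p = 0.0325) and 4.94 in KPCML1 muscle (2.31 ± 0.68, adjusted p = 0.0499), by edgeR's quasi-likelihood test. Averaged over the models it was 2.81 ± 0.36 (adjusted p = 2.51e-05). Without KPC tumor replicate 1 the KPC value was 2.92 ± 0.64 (adjusted p = 0.00515), and without KPC tumor replicate 2 it was 4.97 ± 0.66. The KPP call was lost without KPP tumor replicate 2 (1.17, adjusted p = 0.133) and without KPP control replicate 1 (2.36, adjusted p = 0.0707), and the value was 3.54 without KPP tumor replicate 1. The LLC call was lost without any 1 of its 4 libraries (adjusted p 0.0872 to 0.154), the KPCML1 call without any 1 of its 4 libraries (0.122 to 0.277), with length-scaled counts (0.0511) and with the experiment fitted alone (0.0535), and the C26 call without C26 control replicate 1 (0.143), C26 control replicate 2 (0.163) or C26 tumor replicate 2 (0.154). A difference among the models was not called for Junb (adjusted p = 0.167) except without KPP tumor replicate 2 (0.042) or without the filter on low counts.

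Jund, the constitutive Jun protein that restrains proliferation in many cells, had 26.4 and 53.8 CPM in LLC tumor muscle, against 15.5 and 28.1 CPM in LLC control muscle. Over the 10 tumor libraries it had 26.4 to 54.0 CPM, median 36.2, and over the 8 controls 15.5 to 42.1 CPM, median 29.0. Groups were apart in KPCML1, KPC and KPP muscle and overlapped in LLC and C26 muscle. Its log2 fold change was 0.27 to 0.88, and edgeR called it in 0 models (adjusted p 0.122 to 0.699); at an unadjusted p under 0.05 the count was 1, and DESeq2 called 0. The averaged effect was called at 0.48 ± 0.17 (adjusted p = 0.0333). That call was lost without any 1 of 9 libraries, with adjusted p 0.053 to 0.117: replicate 1 of LLC control and KPC tumor, replicate 2 of LLC tumor, KPCML1 tumor, C26 control, C26 tumor and KPP control, and either Matrigel control. Without LLC tumor replicate 1, Jund was called in LLC muscle, at a log2 fold change of 1.30. Without the filter on low counts it was called in LLC (0.00103) and KPC muscle (0.0378). The LLC effect without the filter was 0.92 ± 0.23, against 0.88 ± 0.36 with it.

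**Figure D2:**
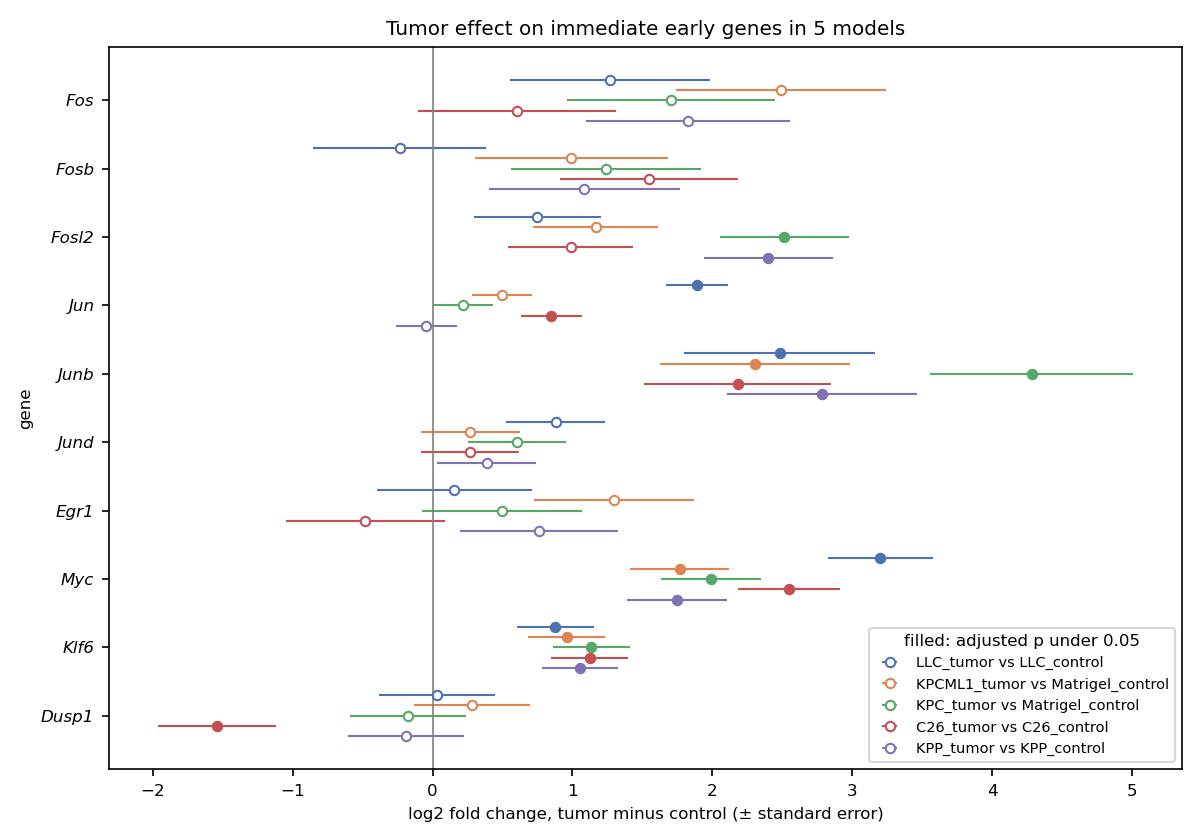
Log2 fold change, tumor minus control, of the 10 genes in the 5 models. Points are estimates of edgeR's quasi-likelihood fit, bars are 1 standard error as derived from the F statistic, and filled points have an adjusted p under 0.05. Myc, Junb and Klf6 are filled in all 5 models, Klf6 within 0.88 to 1.13, while Jun spreads between -0.04 in KPP and 1.89 in LLC muscle.

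The makeup of the Jun family was also compared within libraries, where the scaling between libraries plays no part. Junb held 13.7 to 66.3% of the summed TPM of Jun, Junb and Jund in the 10 tumor libraries, median 24.8%, and 6.49 to 21.3%, median 9.43%, in the 8 control libraries. The highest shares were 66.3% in KPC tumor replicate 1 and 63.9% in KPP tumor replicate 2, and within each experiment both tumor libraries lay above both controls. The share of Jund was 16.8 to 39.6%, median 25.5%, in tumor libraries and 29.4 to 46.0%, median 40.1%, in controls. Jun held 16.1 to 63.0%, median 46.0%, in tumor libraries and 43.7 to 59.9%, median 49.5%, in controls. In the Fos family the share of Fosl2 was 17.2 to 79.2%, median 54.0%, in tumor libraries and 25.1 to 73.1%, median 45.6%, in controls, which overlapped broadly. No test was made of these shares.

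**Figure D3:**
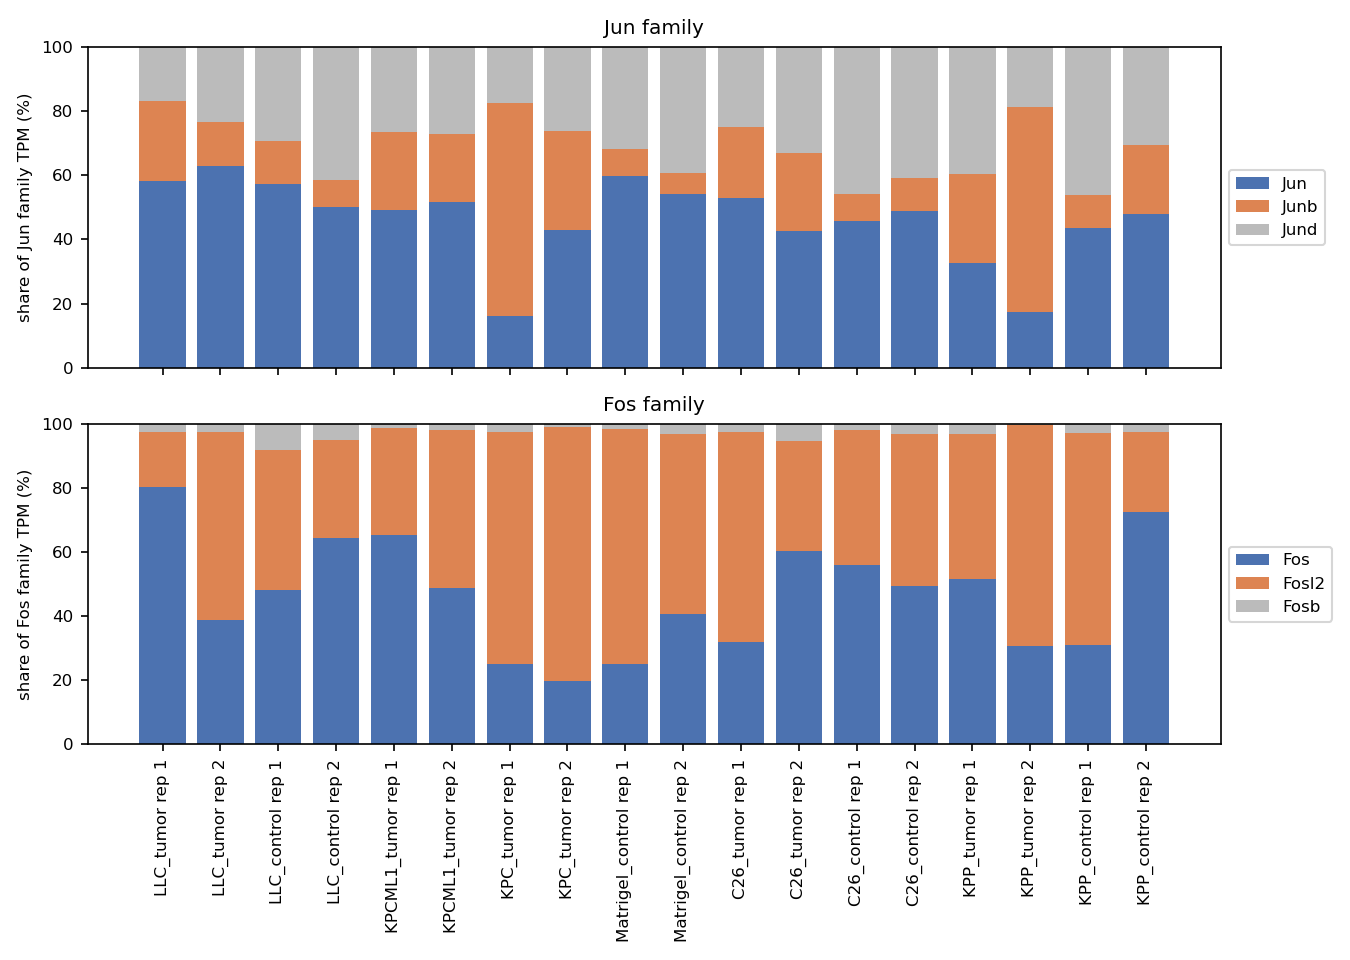
Share of the summed TPM of Jun, Junb and Jund (upper panel, %) and of Fos, Fosl2 and Fosb (lower panel, %) in each of the 18 libraries. The Junb share is 13.7 to 66.3% in tumor libraries and 6.49 to 21.3% in control libraries, with KPC tumor replicate 1 and KPP tumor replicate 2 the highest.

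Egr1, a zinc finger factor that is a known target of SRF, had 13.6 and 4.01 CPM in LLC tumor muscle, against 10.7 and 5.11 CPM in LLC control muscle. KPCML1 muscle had 8.09 and 9.37 CPM and KPC muscle 2.92 and 7.10 CPM, against 4.70 and 2.39 CPM in Matrigel muscle. KPCML1 libraries lay above the controls, whereas KPC and LLC tumor libraries overlapped with theirs. Egr1 levels in C26 tumor muscle were 4.16 and 3.60 CPM, against 5.84 and 5.00 CPM in C26 control muscle. KPP tumor muscle had 10.7 and 9.27 CPM, against 3.54 and 8.34 CPM in KPP control muscle. Both libraries were therefore lower than the controls in C26 and higher in KPP muscle. The log2 fold changes were 0.16 ± 0.56 in LLC, 1.30 ± 0.57 in KPCML1, 0.49 ± 0.57 in KPC, -0.48 ± 0.57 in C26 and 0.76 ± 0.56 in KPP muscle. EdgeR's quasi-likelihood test called 0 of these (adjusted p 0.177 to 0.899); at an unadjusted p under 0.05 the count was 1, and DESeq2 called 0. The averaged effect, 0.45 ± 0.28, was not called either (adjusted p = 0.204). Without the filter on low counts the KPCML1 (0.000895), KPP (0.0359) and averaged (0.0103) effects were called. The KPCML1 effect was then 1.29 ± 0.31, a similar size with a smaller SE.

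Klf6, a zinc finger factor induced by injury and by TGF-beta, had the narrowest range of effects over the models among the 10 genes, 0.88 to 1.13 log2 units. KPCML1 muscle had 80.3 and 66.3 CPM and KPC muscle 89.5 and 76.2 CPM, against 37.8 and 37.7 CPM in Matrigel muscle. C26 tumor muscle had 49.1 and 73.8 CPM, against 28.0 and 28.4 CPM in C26 control muscle. In these 3 comparisons the lowest tumor library stood well above the controls, which were nearly equal to each other. LLC tumor muscle had 39.8 and 47.4 CPM, against 18.2 and 29.2 CPM in LLC control muscle, and KPP tumor muscle had 56.6 and 76.7 CPM, against 39.9 and 24.2 CPM in KPP control muscle. The fold change was 1.84 in LLC (log2 0.88 ± 0.28, adjusted p = 0.0489), 1.94 in KPCML1 (0.96 ± 0.27, adjusted p = 0.0452), 2.19 in KPC (1.13 ± 0.27, adjusted p = 0.00799), 2.18 in C26 (1.12 ± 0.27, adjusted p = 0.011) and 2.08 in KPP muscle (1.05 ± 0.27, adjusted p = 0.00893), by edgeR's quasi-likelihood test. The averaged effect was 1.03 ± 0.14 (adjusted p = 3.44e-05), and the test among models gave an adjusted p of 0.945, which does not show that the effects are alike. Single calls were lost with length-scaled counts in LLC (0.0595) and KPCML1 (0.059). They were also lost in LLC without control replicate 1 (0.356), tumor replicate 1 (0.0858) or tumor replicate 2 (0.248), in KPCML1 without any 1 of its 4 libraries (0.143 to 0.226), in KPC without Matrigel control replicate 2 (0.0574), in C26 without control replicate 1 (0.0747), control replicate 2 (0.0718) or tumor replicate 2 (0.138), and in KPP without control replicate 2 (0.0715) or tumor replicate 2 (0.0516).

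Myc, the master factor of ribosome biogenesis, kept its calls under most alternatives. LLC tumor muscle had 14.9 and 23.4 CPM, against 1.74 and 2.40 CPM in LLC control muscle. KPCML1 muscle had 9.15 and 13.6 CPM and KPC muscle 13.2 and 13.3 CPM, against 3.70 and 2.97 CPM in Matrigel muscle. In these 3 comparisons the lowest tumor library had 9.15 CPM and the highest control 3.70 CPM. C26 tumor muscle had 11.3 and 16.2 CPM, against 2.63 and 2.07 CPM in C26 control muscle, and KPP tumor muscle had 6.399 and 13.7 CPM, against 2.76 and 3.25 CPM in KPP control muscle. Across all libraries the range was 6.399 to 23.4 CPM in the 10 tumor libraries and 1.74 to 3.70 CPM in the 8 controls, without overlap.

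Myc rose 9.20-fold in LLC (log2 3.20 ± 0.38, adjusted p = 0.000233), 3.40-fold in KPCML1 (1.77 ± 0.35, adjusted p = 0.00937), 3.98-fold in KPC (1.99 ± 0.36, adjusted p = 0.0015), 5.85-fold in C26 (2.55 ± 0.37, adjusted p = 0.000541) and 3.36-fold in KPP muscle (1.75 ± 0.36, adjusted p = 0.00221), by edgeR's quasi-likelihood test. Over the models the average was 2.25 ± 0.19 (adjusted p = 6.92e-07). The calls were kept under all alternatives tried in LLC, KPC, C26 and KPP muscle, and the KPCML1 call was lost without Matrigel control replicate 2 (0.115) or KPCML1 tumor replicate 2 (0.111). Without KPP tumor replicate 2 the KPP log2 fold change was 1.16 ± 0.35 (adjusted p = 0.0234). Differences among the models were not called (adjusted p = 0.182), except without the filter on low counts (0.0162). Myc, Junb and Klf6 were among 213 genes called higher in all 5 comparisons, 1.32% of those tested.

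Dusp1, which removes phosphate from MAP kinases and is itself an immediate early gene, was called in 1 of the 5 models, and there it was lower. C26 tumor muscle had 15.8 and 26.5 CPM, against 71.7 and 51.6 CPM in C26 control muscle. KPCML1 muscle had 42.6 and 43.7 CPM and KPC muscle 30.2 and 32.5 CPM, against 36.4 and 34.4 CPM in Matrigel muscle. The groups were apart in each, lower in C26 and KPC and higher in KPCML1 muscle. LLC tumor muscle had 62.2 and 24.9 CPM, against 33.2 and 51.9 CPM in LLC control muscle, and KPP tumor muscle had 26.6 and 53.6 CPM, against 57.2 and 34.2 CPM in KPP control muscle, both with overlap. Dusp1 fell in C26 muscle by 1.54 ± 0.42 on the log2 scale, to 0.344 of the control level (edgeR adjusted p = 0.0199). This call was lost without C26 control replicate 1 (0.123), C26 tumor replicate 1 (0.106) or C26 tumor replicate 2 (0.0506). The other log2 fold changes were 0.03 ± 0.41 in LLC, 0.28 ± 0.41 in KPCML1, -0.18 ± 0.41 in KPC and -0.19 ± 0.41 in KPP muscle and were not called (adjusted p 0.735 to 0.98), nor was the average of -0.32 ± 0.20 (adjusted p = 0.207), except without LLC tumor replicate 1 (0.0394) or without the filter on low counts.

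Averaged over the 5 models, 8 of the 10 genes were called higher, against 50.8% of all genes called, 25.2% higher and 25.7% lower; Egr1 and Dusp1 were the 2 not called. In the authors' deposited table of DESeq2 results, available for 4 of the comparisons (LLC, KPC, C26 and KPP), 39 of 40 log2 fold changes of these genes had the same sign as here, and the largest difference in size was 0.554. Of the 40, 17 were under an adjusted p of 0.05 in both, 4 in the authors' deposited table alone and 0 in the present fit alone. The 4 were Fos in KPC and KPP and Fosl2 in LLC and C26 muscle. The sign that differed was that of Fosb in LLC muscle, 0.16 in the authors' deposited table and -0.24 here.

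The libraries of a group differed more for some of these genes than for a typical gene. The absolute log2 CPM difference between the 2 libraries of a group, with a prior count of 2, had a median over the 9 groups of 0.96 for Egr1, 0.91 for Fos, 0.64 for Dusp1, 0.59 for Fosb, 0.47 for Jund, 0.45 for Myc, 0.37 for Junb, 0.33 for Fosl2, 0.28 for Klf6 and 0.19 for Jun, while the median gene had 0.27. The largest single differences were 2.59 for Fos in LLC tumor, 2.44 for Junb in KPP tumor, 2.05 for Junb in KPC tumor, 1.75 for Fosl2 in KPP tumor and 1.74 for Egr1 in LLC tumor muscle. Fos and Egr1 also differed by over 1 log2 unit between the libraries of at least 1 control group, at 1.44 for Fos in LLC control and 1.22 for Egr1 in KPP control muscle. Jun and Klf6 were as steady as the median gene or close to it.

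**Figure D4:**
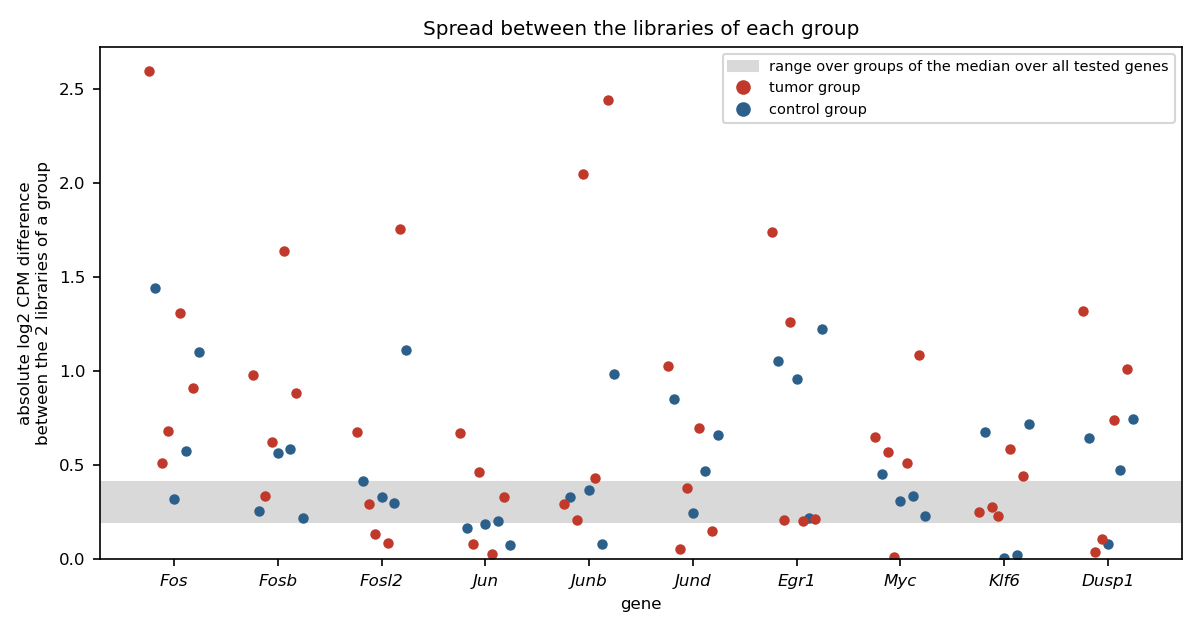
Absolute log2 CPM difference between the 2 libraries of each group for the 10 genes, 9 groups a gene, red for tumor and blue for control groups; the grey band spans the groups' medians over all tested genes. Fos reaches 2.59 in LLC tumor and Junb 2.44 in KPP tumor muscle, while Jun stays at or below 0.67.

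The genes share features of structure that the choice by symbol did not use. Jun, Junb and Jund have a single exon, as do 2.52% of 12849 genes with a 3′ untranslated region of at least 100 bases in the annotation used, and the median gene has 9 exons. The pentamer ATTTA, the core of the AU-rich elements that mark short-lived mRNAs, occurred 5.77 times per kb of 3′ untranslated region in Dusp1, 4.89 in Fos, 4.49 in Myc, 4.10 in Junb, 3.24 in Jun, 2.25 in Klf6, 1.87 in Jund, 1.72 in Fosl2, 1.68 in Egr1 and 0.466 in Fosb, so that 9 of 10 exceeded the median of 1.29. A density at or above that of Dusp1 was found in 4.6% of genes, of Fos in 7.01% and of Jund in 38.2%. In mm10 Junb (bases 84974484 to 84978718, minus strand) and Jund (70698949 to 70700616, plus strand) lie on chromosome 8. Each of the others has a chromosome of its own: Jun on 4 (95049034 to 95052222, minus), Fosl2 on 5 (32135801 to 32157842, plus), Fosb on 7 (19302696 to 19310051, minus), Fos on 12 (85473890 to 85477273, plus), Klf6 on 13 (5861482 to 5870394, plus), Myc on 15 (61985391 to 61990374, plus), Dusp1 on 17 (26505590 to 26562128, minus) and Egr1 on 18 (34859823 to 34864984, plus).

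Of 12 other AP-1 and related leucine zipper genes tested, 2 were called higher and 1 lower in LLC, 1 and 0 in KPCML1, 4 and 1 in KPC, 3 and 1 in C26 and 3 and 0 in KPP muscle, in edgeR. Of all genes, 7.39, 4.15, 15.3, 11.5 and 17.4% were called higher and 6.24, 4.38, 13.7, 9.8 and 19.3% lower in these models, so several of these counts are near the background. Over the alternatives 0 to 4, 0 to 2, 3 to 4, 0 to 4 and 1 to 3 of the list were called higher. For the 2 counts of 0, 1 gene each had an unadjusted p under 0.05, and DESeq2 called 1 in KPCML1 and 0 in KPP muscle. Maff, a small Maf protein without an activation domain, had 130.5 and 57.1 CPM in KPC and 14.9 and 18.9 CPM in KPCML1 muscle, against 3.11 and 3.69 CPM in Matrigel muscle, and 71.5 and 130.4 CPM in KPP tumor against 4.49 and 7.54 CPM in KPP control muscle. It rose by 4.79 ± 0.69 log2 units in KPC (adjusted p = 0.000442), 2.31 ± 0.64 in KPCML1 (0.0397), 4.08 ± 0.66 in KPP (0.0005) and 2.21 ± 0.63 in C26 muscle (0.0232). Maff calls in KPCML1 were lost without any 1 of the 4 libraries (0.0697 to 0.202), and in C26 muscle, where tumor libraries had 5.75 and 34.0 CPM, without tumor replicate 2 (0.669) or either control (0.11 and 0.137) and with the experiment fitted alone (0.0835). Mafk, another small Maf, rose by 3.38 ± 0.46 in KPC muscle (0.000322), and Atf3, a stress-induced repressor, rose by 2.73 ± 0.52 in KPC muscle (0.00228). Mafa, a large Maf factor, fell by 1.63 ± 0.30 in LLC (0.00317), by 1.76 ± 0.30 in C26 (0.00138) and by 1.02 ± 0.29 in KPC muscle (0.0181), the KPC call being lost without either Matrigel control (0.0612 and 0.0781) or KPC tumor replicate 2 (0.149).

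Other immediate early and early response genes, 36 of them tested, were called higher for 16 genes in LLC, 9 in KPCML1, 19 in KPC, 9 in C26 and 14 in KPP muscle, with 1, 1, 1, 3 and 2 called lower in the same order. Of all genes, 7.39, 4.15, 15.3, 11.5 and 17.4% were called higher and 6.24, 4.38, 13.7, 9.8 and 19.3% lower in these models. Over the alternatives, which include leaving out each library, the numbers of the list called higher were 6 to 20, 1 to 16, 14 to 23, 1 to 15 and 8 to 16. The median log2 fold change of the list was 0.92, 0.64, 0.94, 0.40 and 0.63. Klf10, Klf15, Btg2, Sik1 and Ppp1r15a were called higher in all 5 models, as were 1.32% of genes tested, and Ccn1 in all but C26 muscle; the values that follow are of calls kept under all alternatives tried. Klf10, a TGF-beta-induced repressor, rose by 1.89 ± 0.32 in LLC, 2.93 ± 0.33 in KPCML1, 2.88 ± 0.33 in KPC and 2.16 ± 0.32 in C26 muscle, and Klf15, a glucocorticoid-induced regulator of amino acid breakdown in muscle, by 1.75 ± 0.26 in LLC and 2.18 ± 0.26 in KPP muscle. Btg2, an antiproliferative gene, had 151 and 164 CPM in KPC against 13.8 and 11.1 CPM in Matrigel muscle (log2 3.67 ± 0.41) and 81.8 and 218 CPM in KPP tumor against 13.8 and 14.5 CPM in KPP control muscle (3.40 ± 0.41). Sik1, a kinase that restrains CREB coactivators, had 54.7 and 105 CPM in LLC tumor against 3.82 and 6.99 CPM in LLC control muscle (3.88 ± 0.53). Ccn1, a matricellular target of SRF and YAP, had 106 and 152 CPM in LLC tumor against 12.02 and 19.5 CPM in LLC control muscle (3.03 ± 0.30). Ppp1r15a, which restores translation after eIF2alpha phosphorylation, rose by 3.48 ± 0.35 in KPC muscle. The adjusted p of these calls was 0.00214 or lower in edgeR. Tob1, an antiproliferative relative of Btg2, fell by 1.79 ± 0.33 in C26 muscle (adjusted p = 0.00216).

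Of 8 other phosphatases of MAP kinases, Dusp2 and Dusp4 were the ones called higher and Dusp6, Dusp7, Dusp8 and Dusp10 the ones called lower in at least 1 model. In LLC, KPCML1, KPC, C26 and KPP muscle 1, 0, 1, 1 and 1 were called higher and 1, 0, 3, 2 and 3 lower. Of all genes, 7.39, 4.15, 15.3, 11.5 and 17.4% were called higher and 6.24, 4.38, 13.7, 9.8 and 19.3% lower. A count of 1 higher is thus near the background in KPC, C26 and KPP muscle. Each call of Dusp6, Dusp7 and Dusp8 was lost under at least 1 alternative. Dusp4, a nuclear phosphatase of MAP kinases, had 9.54 and 7.69 CPM in LLC tumor against 1.10 and 0.902 CPM in LLC control muscle, a rise of 3.10 ± 0.56 log2 units (adjusted p = 0.00325), and rose by 2.58 ± 0.54 in KPP muscle (0.00256). Dusp2 rose by 2.24 ± 0.39 in KPC (0.00126) and 1.88 ± 0.39 in C26 muscle (0.00484). Dusp10, which acts on p38 and JNK, had 2.81 and 2.85 CPM in KPP tumor against 27.3 and 29.4 CPM in KPP control muscle, a fall of 3.32 ± 0.57 log2 units (0.000692). It also fell in KPC muscle by 2.41 ± 0.54 (0.00549) and in C26 muscle by 2.35 ± 0.53 (0.00729), calls that were lost without KPC tumor replicate 2 (0.0583) and without C26 tumor replicate 2 (0.0827). In KPCML1 muscle 0 of the 8 were called by edgeR, 1 higher and 1 lower had an unadjusted p under 0.05, and DESeq2 called 1 higher and 1 lower.

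Kinases and factors that feed immediate early promoters, 30 genes in all, were called as follows: 2 were called higher and 3 lower in LLC, 0 and 6 in KPCML1, 4 and 7 in KPC, 1 and 10 in C26 and 4 and 12 in KPP muscle, while 7.39, 4.15, 15.3, 11.5 and 17.4% of all genes were called higher and 6.24, 4.38, 13.7, 9.8 and 19.3% lower in the same order. Over the alternatives 0 to 5, 0 to 1, 2 to 5, 0 to 1 and 1 to 5 of them were called higher and 3 to 4, 2 to 7, 5 to 9, 4 to 10 and 4 to 13 lower, and DESeq2 called 4 in each direction in LLC muscle. In KPCML1 muscle 2 had an unadjusted p under 0.05 for an increase, and DESeq2 called 1. Map2k6, the kinase MKK6 that activates p38, had 4.77 and 5.95 CPM in LLC tumor against 34.4 and 29.5 CPM in LLC control muscle. KPCML1 muscle had 6.08 and 4.39 CPM and KPC muscle 5.00 and 5.76 CPM, against 36.9 and 31.9 CPM in Matrigel muscle. Map2k6 levels in C26 tumor muscle were 2.51 and 3.37 CPM, against 28.2 and 30.4 CPM in C26 control muscle, and KPP tumor muscle 2.64 and 2.45 CPM, against 23.5 and 16.1 CPM in KPP control muscle. Map2k6 fell in all 5 models, by 2.57 ± 0.23 in LLC, 2.71 ± 0.23 in KPCML1, 2.68 ± 0.23 in KPC, 3.32 ± 0.24 in C26 and 2.96 ± 0.24 log2 units in KPP muscle, with an adjusted p of at most 5.91e-05. Mrtfa, the actin-regulated coactivator of SRF, fell in all 5 as well, by 1.57 ± 0.25, 2.12 ± 0.25, 2.48 ± 0.26, 1.70 ± 0.25 and 1.98 ± 0.26 in the same order (adjusted p at most 0.00141). Both genes kept these calls under all alternatives tried. In KPC muscle Map2k3, the other p38 activator, rose by 1.15 ± 0.19 (0.000849), and Elk4, a partner of SRF, rose by 2.31 ± 0.38 (0.000983).

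Among 16 genes of the Myc network (partners, antagonists and stabilising kinases), 2 were called higher in LLC, 3 in KPCML1, 7 in KPC, 4 in C26 and 6 in KPP muscle, and 0, 0, 2, 1 and 2 lower, the lower counts in KPC and KPP muscle being near or under the 13.7 and 19.3% of all genes called lower there. The share of all genes called higher was 7.39, 4.15, 15.3, 11.5 and 17.4% in these models. Over the alternatives 0 to 4, 0 to 4, 4 to 9, 1 to 7 and 2 to 8 genes of the network were called higher. For the counts of 0, an unadjusted p under 0.05 was found for 0 genes in LLC and 1 in KPCML1 muscle, and DESeq2 called the same numbers. Max, the obligate partner of Myc, rose in KPC muscle by 1.17 ± 0.17 (adjusted p = 0.000556). The kinase Pim3, known to stabilise Myc, was called higher in all 5 models, and kept the call under all alternatives in KPC, where it rose by 1.92 ± 0.30 log2 units (0.00074), and in KPP muscle, where it rose by 1.94 ± 0.30 (0.000364). Of 20 known Myc targets, 12 were called higher in LLC, 7 in KPCML1, 11 in KPC, 12 in C26 and 14 in KPP muscle, and 2, 0, 1, 2 and 1 lower; in KPCML1 muscle 2 had an unadjusted p under 0.05 for a decrease, and DESeq2 called 2. Beside these counts, 7.39, 4.15, 15.3, 11.5 and 17.4% of all genes were called higher and 6.24, 4.38, 13.7, 9.8 and 19.3% lower. Over the alternatives 1 to 13, 0 to 8, 6 to 11, 5 to 13 and 9 to 14 of these targets were called higher in the same order. Gnl3 and Npm1 encode nucleolar proteins of ribosome production. Gnl3 rose by 1.27 ± 0.24 in LLC, 1.95 ± 0.24 in KPC, 1.56 ± 0.24 in C26 and 1.74 ± 0.24 in KPP muscle, and Npm1 by 1.76 ± 0.21 in KPP muscle, where it had 403 and 349.9 CPM in tumor against 90.8 and 132 CPM in control libraries. The LLC call of Gnl3 was lost without LLC control replicate 1 (0.0519). Odc1, the first enzyme of polyamine synthesis, had 507 and 378 CPM in LLC tumor against 115 and 150.4 CPM in LLC control muscle (1.74 ± 0.23). Ldha, the glycolytic lactate dehydrogenase of fast muscle, is on the same list and was called lower in LLC, C26 and KPP muscle. In LLC muscle it fell by 2.39 ± 0.34, to 653 and 559 CPM in tumor against 3231 and 3124 CPM in control libraries (adjusted p = 0.00075).

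**Figure D5:**
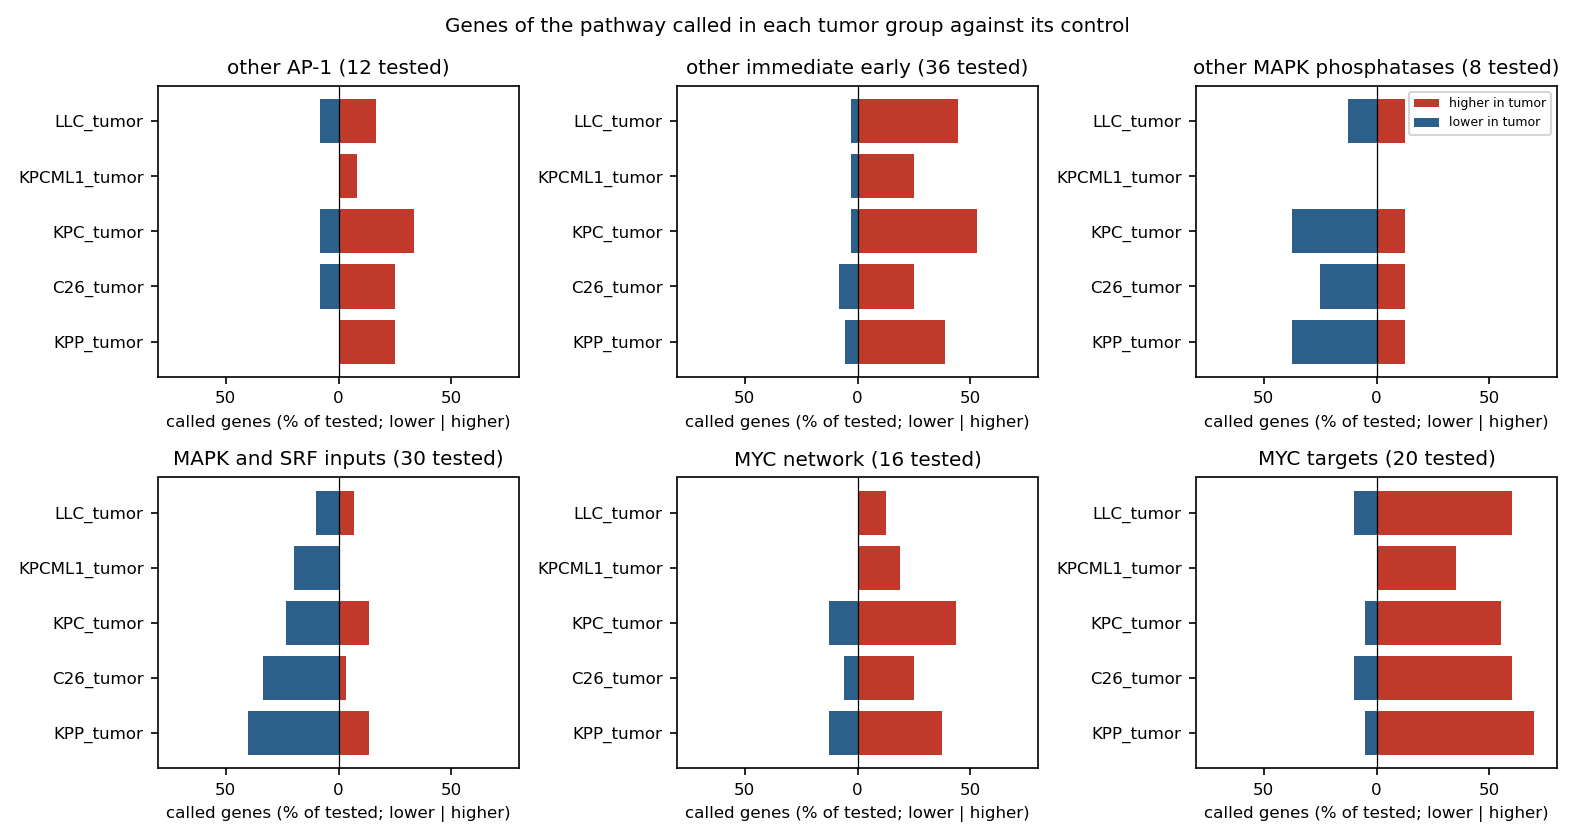
Share of the tested genes of 6 pathway lists (%) called higher (red, to the right) or lower (blue, to the left) in each tumor group against its control, calls having an edgeR adjusted p under 0.05. Myc targets reach 14 of 20 called higher in KPP muscle, whereas MAP kinase and SRF inputs reach 12 of 30 called lower there. In KPP muscle 17.4% of all genes were called higher and 19.3% lower.

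Marker genes of cell types were counted too, and their part in the values above was not tested. Their sums are CPM of the plain library total, another scale than the CPM of single genes. In LLC, KPCML1, KPC, C26 and KPP muscle 7.39, 4.15, 15.3, 11.5 and 17.4% of all genes were called higher. The shares called lower were 6.24, 4.38, 13.7, 9.8 and 19.3%. A count of 1 in a list lies under these shares in KPC and KPP muscle. Neutrophil genes, 11 of 12 tested, were called higher for 2, 5, 9, 5 and 6 genes in LLC, KPCML1, KPC, C26 and KPP muscle. Their summed level was 10.6 and 11.0 CPM in LLC tumor against 6.02 and 2.60 CPM in LLC control, and 26.4 and 50.1 CPM in KPCML1 and 95.4 and 77.0 CPM in KPC against 5.96 and 3.23 CPM in Matrigel muscle. In C26 it was 71.9 and 187 CPM in tumor against 3.41 and 3.39 CPM in control muscle, and in KPP 37.9 and 116.5 CPM in tumor against 5.90 and 4.31 CPM in control muscle. Ngp and Camp, granule genes of neutrophils, were at 0 in all 4 control groups, and Camp also in KPCML1 muscle. Ltf was at 0 in LLC and C26 control muscle and in LLC and KPP tumor muscle. Macrophage genes were called higher for 0, 4, 1, 0 and 1 of 12 (edgeR; at an unadjusted p under 0.05, 0 in LLC and 2 in C26, and DESeq2 called 0 in both), and 1 was called lower in each of KPC and KPP muscle. Their sum was 167 and 152 CPM in KPCML1 against 73.1 and 42.9 CPM in Matrigel muscle, and 54.9 to 125 CPM in the other tumor groups against 39.6 to 122 CPM over all control libraries. Erythroid genes were called higher for 6, 8 and 7 of 8 in LLC, KPCML1 and KPC muscle, and for 0 in C26 and KPP (edgeR; at an unadjusted p under 0.05, 0 and 3, and DESeq2 called 0 and 1), with sums of 194 to 7368 CPM in tumor and 273 to 769 CPM in control libraries. Endothelial genes were called lower for 9 of 10 in KPP muscle (162 and 124 CPM in tumor against 329 and 269 CPM in control libraries), while 1 of 10 was called higher in each of LLC, KPCML1 and KPC muscle. Their sum was 369 and 448 CPM in KPCML1 against 244 and 286 CPM in Matrigel muscle. Fibro-adipogenic genes were called lower for 4, 2, 6, 3 and 7 of 10 in the order above, and 1 was called higher in each of KPCML1 and C26 muscle. Their sums were 313 to 1036 CPM in tumor and 527 to 1432 CPM in control libraries. KPCML1 muscle, with 1036 and 939 CPM, overlapped with Matrigel muscle, with 1180 and 648 CPM. Satellite cell and myogenic genes were called higher for 1, 0, 4, 3 and 3 of 7 and lower for 0, 2, 2, 0 and 2 (edgeR; for the counts of 0, an unadjusted p under 0.05 was found for 2 higher in KPCML1 and 0 lower in LLC and C26, as DESeq2 called), and summed to 3684 to 11800 CPM in tumor and 2664 to 3631 CPM in control libraries. This list includes Des, also a gene of the muscle fibers, so its sum does not measure satellite cells.

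By the root mean square difference of centred log2 CPM over the 18 libraries, in which libraries of a group and their depth are shared, the gene most like Junb was Btg2 (0.57), followed by Gstm2 (0.65) and Tgif1 (0.67). Most like Myc were Clec4e (0.47), Vars (0.48) and Tgif1 (0.49). The nearest to Klf6 was Litaf (0.29), to Jun BC048403 (0.27), to Fosl2 Wbp1l (0.37), to Jund Trappc12 (0.23), to Dusp1 Nr3c2 (0.37), to Egr1 Scarna2 (0.53), to Fosb Olfr102 (0.44) and to Fos Plcd3 (0.67). Among the 10 themselves the closest pair was Jund and Klf6 (0.48), the closest pair with Junb was Junb and Myc (0.81), and the least alike were Junb and Dusp1 (1.70).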

How the data were processed

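RNA from TA muscle was sequenced as poly(A)-selected, directional, paired-end libraries on a NovaSeq, per the labels' protocols. The authors quantified transcripts with Salmon (version not given in the sources used here) and deposited, for each of 18 libraries, estimated counts and TPM per transcript; bcl2fastq 2.20, FastQC, DESeq2 and build mm10 are also named, per the submitters' processing notes. The authors deposited log2 fold changes and adjusted p-values for single comparisons, of which 4 were set beside the present values; one whose name matches no label was not used. Estimated counts were summed per gene through GENCODE M21, matching 139881 of 140825 transcripts (0.416 to 0.693% of fragments unmatched), and rounded. One edgeR 4.0.16 quasi-likelihood fit (TMM, filterByExpr, R 4.3.3) over all 9 groups tested 16089 genes in 5 contrasts, their mean and their joint difference, with 9 residual degrees of freedom; p-values measure the spread between 2 libraries a group. On data simulated for the LLC contrast over 16089 genes, 39% of 2-fold and 95% of 4-fold changes were called. The changes were put only into genes with a mean above 1 CPM. Each simulated gene had the spread typical of its level rather than its own, so genes with a larger spread can be called less often. Alternatives were DESeq2 1.42.0, no filter, length-scaled counts, a replicate block, single-experiment fits and leaving out each library. The members and all gene lists were chosen with earlier results of these data known. Named were all members, the 4 called genes of smallest p per pathway list and comparison, and the 3 nearest genes by pattern (predicted names left out); from those, values are printed mainly for calls kept under the alternatives. Promoter windows came from RefSeq tables of GRCm38.p6.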

Additional observations from a re-analysis of the deposited data

Results flagged for a closer look

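Jun was the 1 gene of the 10 past edgeR's joint test of a difference among the models, which called 8.32% of all genes. That call was lost without LLC control replicate 1. Of the 10 pairs of models 2 were called for Jun, each adjusted over all genes but not over the pairs. The Jun effect was larger in LLC than in KPP muscle by 1.93 log2 units (edgeR adjusted p = 0.00572). It was also larger in LLC than in KPC muscle, by 1.67 log2 units (edgeR adjusted p = 0.0195).

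In 4 further pairs both tumor libraries lay above both controls in one model and below both controls in the other. Pair tests were read only for genes past the joint test, so no p-value is given for these 4. In single models 30.2 to 34.3% of all genes lay above both controls in this way and 29.2 to 34.0% below. The share of all genes with such opposite pairs was not computed. Egr1 was higher in KPCML1 and lower in C26 muscle, a difference of 1.78 log2 units, and higher in KPP and lower in C26 muscle, a difference of 1.24. Dusp1 was higher in KPCML1 and lower in C26 muscle, a difference of 1.83. It was also higher in KPCML1 and lower in KPC muscle, which share their controls, a difference of 0.46. Over all 5 models the joint test gave adjusted p of 0.399 for Egr1 and 0.181 for Dusp1, and neither was called. With 2 libraries a group, no library could be tested for standing apart from its group.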

How the results depend on the processing

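Of 411 recomputed values under other settings, 374 kept direction and side of the threshold, 7 lost a call, 28 gained one and 2 reversed; with one library left out the counts were 486, 54, 6 and 14 of 560. Without the filter on low counts 7 of the 10 genes were called in LLC, 6 in KPCML1 and 7 in the joint test, which DESeq2 called for 2. All 10 genes passed the filter, so their own counts were the same in this setting. The single-model calls gained there went with a smaller SE at a similar effect. Fosl2 in KPCML1 muscle, for example, was 1.16 ± 0.24 without the filter and 1.17 ± 0.45 with it. Length-scaled counts left 1 in KPCML1. Leaving out one library gave 2 to 3 called genes in LLC, 0 to 1 in KPCML1, 3 to 4 in KPC, 1 to 5 in C26, 2 to 4 in KPP, 6 to 8 for the mean and 0 to 3 in the joint test; the counts of 0 had 4 genes (KPCML1) and 2 genes (joint) at an unadjusted p under 0.05. The cause was not tested. Uncalled log2 fold changes that reversed with one library left out ranged over -0.57 to 2.18 (Fos, LLC), -0.20 to 1.10 (Fos, C26), -0.88 to 0.23 (Fosb, LLC), -0.034 to 0.43 (Jun, KPC), -0.15 to 0.11 (Jun, KPP), -0.11 to 0.55 (Jund, C26), -0.97 to 0.80 (Egr1, LLC), -0.28 to 1.06 (Egr1, KPC), -0.77 to 0.57 (Dusp1, LLC) and -0.72 to 0.23 (Dusp1, KPP). Jun in KPP was 0.001 without the filter, and Dusp1 in LLC was -0.074 with the replicate block.

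The 2193, 1373, 4674, 3419 and 5909 genes called in LLC, KPCML1, KPC, C26 and KPP were 502 to 1208, 140 to 889, 2033 to 4633, 1093 to 3429 and 3238 to 4970 with one library left out. Fitted alone, LLC had 3842, KPCML1 774 and KPP 2920, and without the filter KPCML1 had 2244. The joint count of 1339 was 4128 without the filter, 880 with length-scaled counts, 3474 by DESeq2 and 457 to 2716 with one library left out.

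Same-numbered libraries did not deviate together (correlations -0.174 to 0.093), so the numbers do not pair the samples. A replicate block called 3, 2, 4, 4 and 4 of the 10 genes, 8 for the mean and 1 jointly, and 1329, 690, 3610, 2433, 4740, 7456 and 285 of all genes; the calls of Klf6 in LLC (adjusted p = 0.0664) and KPCML1 (0.0785) and of Dusp1 in C26 (0.0592) were lost under it. Pairing the KPP controls crosswise, chosen after seeing the data, called 4 of the 10 and 5553 genes. Counts of 5 to 46 fragments limit Fosb.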

Other observations

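Transcript estimates were dominated by one form in most of the genes, whose mean share of the gene's TPM over the 18 libraries was 100% for Jun and Jund, 99.97% for Junb, 96.6% for Klf6, 91.7% for Fosl2, 82.6% for Egr1, 80.8% for Fos and 78.4% for Dusp1. Myc was divided between 2 transcripts, one with a mean share of 41.1% and a range of 21.6 to 55.5% over the libraries, the other with a mean of 42.5% and a range of 0 to 69.4%. The leading Fosb transcript held 39.6%. These shares are Salmon's estimates for overlapping transcripts and were not compared between groups.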
